A study of Mus musculus with 2 samples.

Results

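The 10 hedgehog pathway genes described here are Shh, Ptch1, Smo, Gli1, Gli2, Gli3, Hhip, Sufu, Gas1 and Boc. They were chosen by name: every probe set whose only gene symbol in the platform annotation is one of these was taken, 27 of 45037 probe sets, for 10 of 18193 genes. The RNA came from mouse lungs at embryonic day 18, shortly before birth, and was measured on 2 Affymetrix arrays. The wildtype group was 1 array of normal lungs. The other group was 1 array of lungs homozygous for Nmyc9a, a hypomorphic (reduced-function) allele of Mycn, the gene for the N-Myc transcription factor. Each array held RNA of pooled lungs, and the sources used here name neither the pool size nor the strain nor the sex. The comparison asks how transcripts of this pathway differ in lungs with reduced Mycn function. With 1 array a group, no difference below has a replicate check, a standard deviation over animals or a p-value, and the number of arrays limits the precision.

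Hedgehog signalling passes from a secreted ligand to the Gli transcription factors. The receptor Ptch1 holds back the membrane protein Smo until a ligand binds, and active Smo then frees the Gli proteins from Sufu, turning on targets that include Gli1, Ptch1 and Hhip. In the developing lung the epithelium makes Shh, and the surrounding mesenchyme carries the receptors, answers the signal and grows and forms smooth muscle under its influence. Ptch1 and Hhip also bind ligand and so limit its spread.

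Signals are in arbitrary intensity units. A factor of 0.977 on the array labelled Nmyc9a brought the median probe set to a log2 ratio of 0. Values below a floor of 49.3, the 40th percentile of all signals, were raised to it before a ratio was taken, and a probe set or gene is called measured when the mean signal of both arrays reached the floor. A gene took the ratio of its brightest probe set. The yardstick for error was how far measured probe sets of 1 gene differ, which over 5671 genes gave a pooled SD of 0.40 in log2 units (1.32-fold). It leaves out differences between animals and between arrays. Genes were counted as higher or lower at 1.5-fold, a log2 ratio of 0.58 in either direction, which is a size and not a test.

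All 10 genes had at least 1 measured probe set, and 23 of the 27 probe sets were measured. Of the 10 genes, 1 (Gas1) was lower by at least 1.5-fold in the Nmyc9a homozygote and none was 1.5-fold higher. Among the 12600 measured genes of the arrays, 9.7% were that much lower and 6.33% that much higher, so 1 and 0 of 10 are close to these shares. The members' median log2 ratio was -0.18, against -0.09 for all measured genes, a gap that was gone after quantile normalization (-0.11 and -0.10) and after loess (-0.07 and -0.06). Of the members 7 lay below 0 (70%), as did 58.7% of measured genes. Ratios of Gli1, Gli2 and Gas1 were larger than the pooled SD of 0.40, and those of the other 7 genes were within it. Which gene passed depended on the scaling: after quantile normalization, or after loess on mean signal, it was Gli2 and not Gas1. At 2-fold no member passed, against 1.29% of measured genes higher and 1.38% lower. A looser rule, a difference of 25%, was met by 1 higher member (Gli1) and 3 lower ones (Gas1, Gli2 and Gli3), against 16% of measured genes higher and 27.2% lower.

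**Figure D1:**
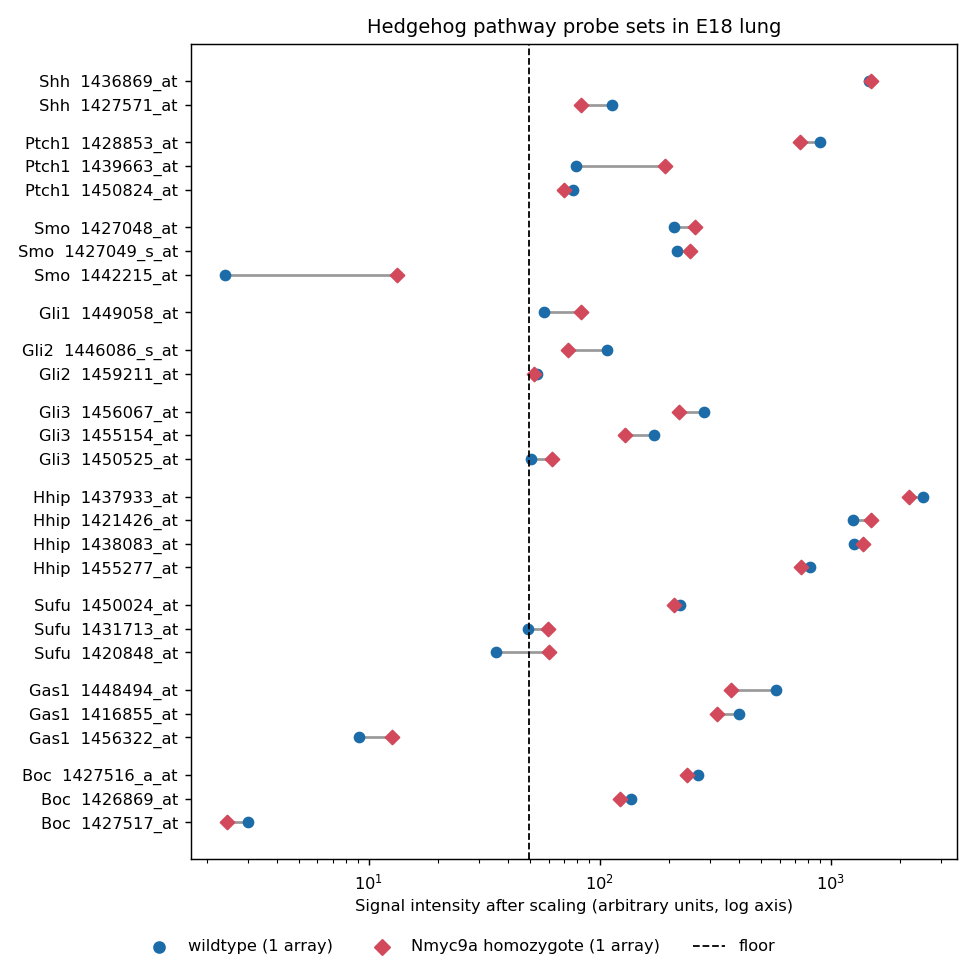
Signal of each of the 27 hedgehog probe sets on the wildtype array (circles) and the array labelled Nmyc9a (diamonds), in arbitrary units after scaling on a log axis, with the floor of 49.3 as a dashed line. Probe sets are grouped by gene, brightest first, and 4 of them were not measured; the widest gap above the floor is that of Ptch1 probe set 1439663_at, from 79.1 to 192.

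The ligand gene Shh had nearly equal signals in its bright probe set. Probe set 1436869_at read 1462 in wildtype and 1488 in the Nmyc9a homozygote, the order used for every pair below, which is a log2 ratio of 0.03. A dimmer probe set, 1427571_at, read 112 and 83.3, a ratio of -0.43. These ratios lie 0.46 apart, within the pooled SD of 0.57 for the difference of 2 such ratios, and the gene had a ratio of -0.20 when the median of its probe sets was used. Shh is made by epithelium, and all 16 listed epithelial markers were measured, with summed signals of 32653 and 32678. Bright genes weigh most in such sums, among them Scgb1a1, which read 3388 and 4915. By gene, 11 of the 16 lay below 0 and 5 above, with a median of -0.11, beside -0.09 for all measured genes. Among these markers 1, the simple-epithelium keratin gene Krt8, was 1.5-fold lower (1596 and 840), and none was higher. The shares over all measured genes were 9.7% and 6.33%. Sftpc, the surfactant protein C gene that marks distal epithelium, read 8639 and 8966, and Nkx2-1, the lung lineage transcription factor gene, read 108 and 110. In whole-lung RNA fewer cells of a type and less RNA per cell cannot be told apart.

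The receptor gene Ptch1 had the widest disagreement of any member. Its brightest probe set, 1428853_at, read 896 and 737, a log2 ratio of -0.28. Probe set 1439663_at read 79.1 and 192, a log2 ratio of 1.28 (2.43-fold higher), and was the only member probe set past 1.5-fold upwards. Set 1450824_at, read 76.5 and 70.3, a ratio of -0.12. The distance of 1.56 between the outer pair is larger than that SD of 0.57, so the arrays give no single direction for Ptch1 across its probe sets. The sources used here do not place the probe sets along the transcript. By its brightest probe set, Ptch1 was below 0 under all 12 settings, between -0.28 and -0.08; the setting that took the median of its probe sets gave -0.12.

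Smo, the transducer that Ptch1 holds back, was higher in both measured probe sets by less than the pooled SD. Probe set 1427048_at read 208 and 258, and 1427049_s_at read 215 and 246, ratios of 0.31 and 0.19. Both are listed against the same source sequence, so they are not independent readings. The remaining set, 1442215_at, read 2.4 and 13.3, below the floor on both arrays. Smo stayed above 0 under all 12 settings, from 0.25 to 0.40, and 83.3% of measured genes had a lower ratio.

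Gas1 and Boc are co-receptors, which bind the ligand beside Ptch1 and aid its reception, and both were lower in each measured probe set. Gas1, a membrane-anchored co-receptor first known as a growth-arrest gene, read 579 and 371 in probe set 1448494_at, a log2 ratio of -0.64 (1.56-fold lower). Its next probe set, 1416855_at, read 399 and 323, a ratio of -0.31 that did not reach 1.5-fold. The last Gas1 set, 1456322_at, read 9.1 and 12.6, below the floor on both arrays. Gas1 stayed below 0 under all 12 settings (-0.64 to -0.47) and was 1.5-fold lower under 7 of them. Those 7 were the values as deposited (-0.61) and settings that left its ratio at -0.64 unchanged. It fell short after quantile normalization (-0.53), loess (-0.49) and centring on the measured genes (-0.55). It also fell short with a pseudocount (-0.579) and at the median of its probe sets (-0.47).

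Boc, an immunoglobulin-family co-receptor, had ratios of -0.17 and -0.16 in its measured probe sets. Set 1427516_a_at read 267 and 238, and 1426869_at read 136 and 122. These probe sets lay within 0.01 of each other, and both ratios were well inside the pooled SD of 0.40. Probe set 1427517_at read 3.0 and 2.4, below the floor. Cdon, the close relative of Boc with the same role, was lower by 1.53-fold (189 and 123) in its only measured probe set, a log2 ratio of -0.61 that fell short of 1.5-fold with the values as deposited, with a pseudocount, and after centring on the measured genes (an alternative chosen after the data were seen). The endocytic receptor gene Lrp2 stood at 0.05. Cdon and Lrp2 were the 2 genes measured of 3 on the list of other receptors and co-receptors. Thus 1 of 2 was 1.5-fold lower and none higher, beside 9.7% and 6.33% of all measured genes.

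**Figure D2:**
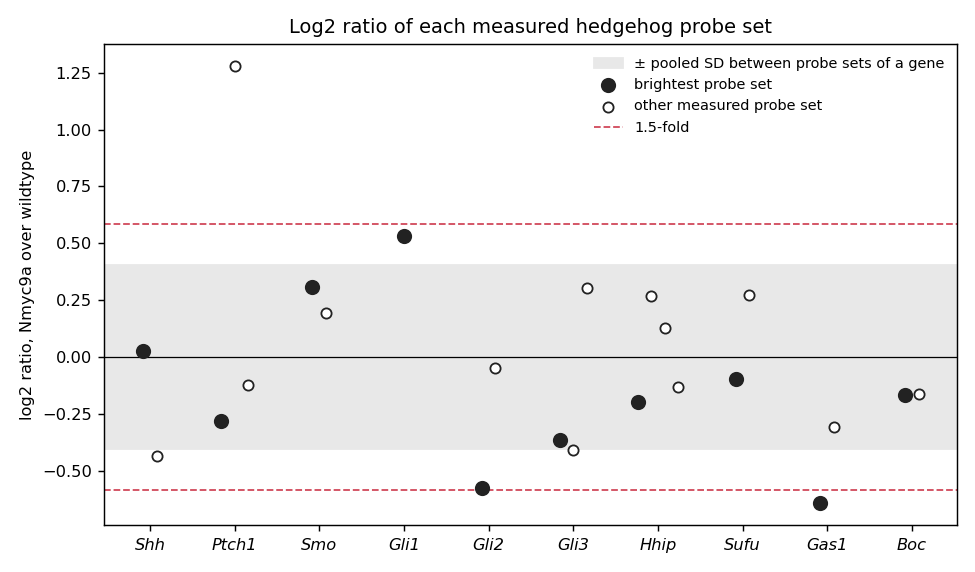
Log2 ratio (array labelled Nmyc9a over wildtype) of the 23 measured probe sets, by gene; filled points are the brightest probe set, open points the others, the grey band is plus or minus the pooled SD of 0.40 and the dashed lines are 1.5-fold. One Gas1 point lies below the lower line and one Ptch1 point, at 1.28, above the upper line.

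The Gli genes encode the zinc-finger transcription factors at the end of the pathway, and their transcripts did not share a direction. Gli1, an activator and itself a target widely used as a readout of the pathway, has 1 probe set. This set, 1449058_at, read 57.3 and 83.0, a log2 ratio of 0.53 (1.45-fold higher), and both signals lay near the floor. Gli2, the main activator in many tissues, read 108 and 72.6 in probe set 1446086_s_at, a log2 ratio of -0.57 (1.49-fold lower). Its other probe set, 1459211_at, is listed against the same source sequence and read 53.4 and 51.7, a ratio of -0.05. Gli2 was below 0 in both, but the signals of 1459211_at lay near the floor of 49.3, so that set could hardly show a decrease. The ratios lie 0.53 apart, within the SD of 0.57 for such a difference.

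Gli3, which acts largely as a repressor in the absence of ligand, was lower in its brighter probe sets. Probe set 1456067_at read 282 and 220, and 1455154_at read 171 and 129, ratios of -0.36 and -0.41. The dimmest set, 1450525_at, read 50.4 and 62.3, a ratio of 0.30 from signals just above the floor. By the brightest probe sets, Gli1 lay 1.11 above Gli2 on the log2 scale, against a pooled SD of 0.57 for the difference of 2 such ratios. That SD describes any 2 probe sets of a gene, whereas Gli1 was the highest of the 10 members and only Gas1 lay below Gli2. The dimmer Gli2 probe set, at -0.05, lay nearer to Gli1, but its signals were near the floor. Across the settings in which it was measured Gli1 ranged from 0.31 to 0.62 and Gli2 from -0.74 to -0.05, the last when probe sets ending in _x_at, _s_at or _a_at were left out. With the floor at the 60th percentile neither Gli1 nor Gli2 was measured.

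Sufu, the inhibitor that binds Gli proteins, read 224 and 209 in its brightest probe set, 1450024_at, a log2 ratio of -0.09. Set 1431713_at read 49.1 and 59.5, and because the wildtype signal was below the floor its ratio is 0.27 or higher. Probe set 1420848_at read 35.7 and 60.5 and was not measured. No direction for Sufu held across its probe sets, and by their median it stood at 0.09.

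Hhip, the decoy receptor that binds and retains ligand, had 4 probe sets far above the floor, and they divided evenly. Probe sets 1437933_at and 1455277_at were lower, reading 2494 and 2173 and then 816 and 744, ratios of -0.20 and -0.13. Sets 1421426_at and 1438083_at were higher, reading 1244 and 1498 and then 1257 and 1375, ratios of 0.27 and 0.13. All of these lay within the pooled SD, and the median of the 4 was close to 0. The brightest set was above 0 after quantile normalization (0.02) and after loess (0.03).

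Because bright probe sets as a whole lay lower than dim ones on the array labelled Nmyc9a, the members were also read against probe sets of like signal. In 5 equal bins of mean signal over the 27191 measured probe sets, the median log2 ratio was 0.18 in the dimmest bin and -0.20 in the brightest. The brightest Hhip probe set, at -0.20, thus lay at the median of its bin, and Gli1, at 0.53, lay 0.35 above that of the dimmest bin. Gli2 lay 0.70 below the median of its bin, and Gas1 0.44 below. Bright Shh lay 0.22 above its own, and Smo 0.38 above. Of the 23 measured member probe sets 10 lay above the median of their bin and 13 below, with a median distance of -0.02. None lay outside the middle 95% of its bin, and the closest to an edge was Ptch1 set 1439663_at at 1.28, against an upper edge of 1.38. By probe set, 1 of 23 was 1.5-fold higher and 1 lower, while 14.4% of all measured probe sets were that much higher and 8.28% that much lower.

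**Figure D3:**
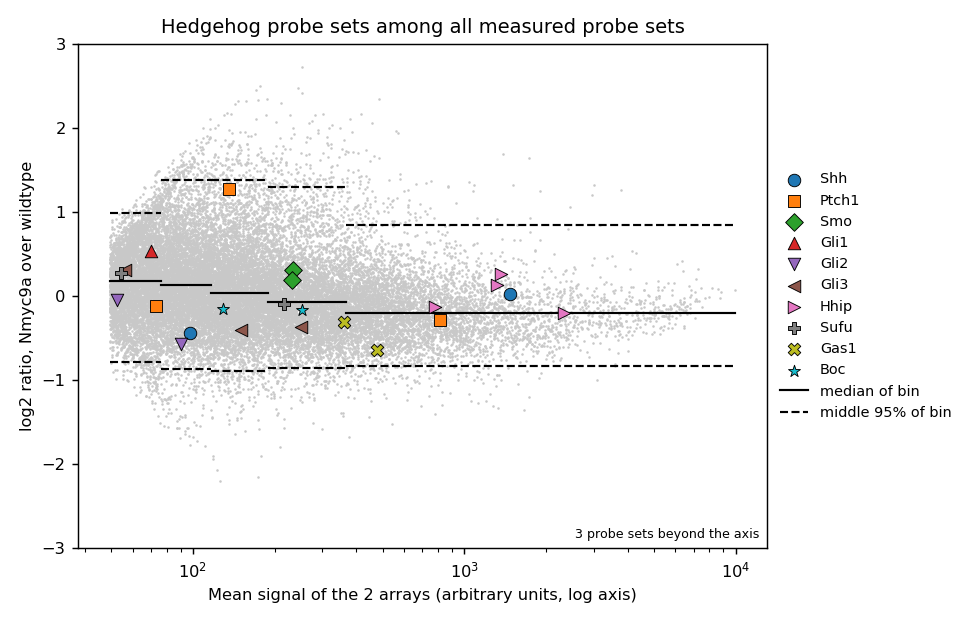
Log2 ratio (array labelled Nmyc9a over wildtype) against the mean signal of the 2 arrays (log axis) for the 27191 measured probe sets in grey and the 23 hedgehog probe sets in colour; solid lines are the median and dashed lines the middle 95% in each of 5 bins of signal, and 3 grey points lie beyond the axis. All 23 coloured points lie between the dashed lines, and the medians slope from 0.18 in the dimmest bin to -0.20 in the brightest.

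The promoters of the members with the lowest brightest-set ratios, Gas1, Gli2 and Gli3, are shown because N-Myc binds DNA at E-boxes and these are the genes that stood lowest. Sequences are from RefSeq on GRCm38.p6, each 300 bases running from 250 before the start of the gene to 50 after it, 5′ to 3′ on the strand of the gene. Capitals mark the E-box core CANNTG.
Gas1 (chr13:60177486-60177785, minus strand): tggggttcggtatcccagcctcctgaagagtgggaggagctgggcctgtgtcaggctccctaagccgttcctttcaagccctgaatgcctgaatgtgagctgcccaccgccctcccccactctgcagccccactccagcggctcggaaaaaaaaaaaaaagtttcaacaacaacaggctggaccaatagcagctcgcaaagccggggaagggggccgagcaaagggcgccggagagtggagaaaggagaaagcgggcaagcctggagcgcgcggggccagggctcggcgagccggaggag
Gli2 (chr1:119053570-119053869, minus strand): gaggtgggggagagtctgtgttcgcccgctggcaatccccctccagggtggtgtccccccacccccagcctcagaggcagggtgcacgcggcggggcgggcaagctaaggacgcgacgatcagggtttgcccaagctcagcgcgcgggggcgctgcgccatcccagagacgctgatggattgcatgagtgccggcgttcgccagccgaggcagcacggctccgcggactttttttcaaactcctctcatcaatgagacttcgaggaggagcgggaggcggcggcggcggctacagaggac
Gli3 (chr13:15463473-15463772, plus strand): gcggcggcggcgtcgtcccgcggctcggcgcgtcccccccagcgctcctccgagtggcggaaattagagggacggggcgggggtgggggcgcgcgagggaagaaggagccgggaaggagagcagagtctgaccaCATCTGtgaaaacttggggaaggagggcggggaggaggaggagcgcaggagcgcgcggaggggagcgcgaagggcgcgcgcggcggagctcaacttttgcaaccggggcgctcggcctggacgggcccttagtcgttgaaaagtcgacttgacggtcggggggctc
Of these windows, that of Gli3 held 1 core (CATCTG), and those of Gas1 and Gli2 held none. The RefSeq table had a window for 7 of the 10 members, and 2 of the 7 (Gli3 and Sufu) held a core, as did 72.3% of all 32851 windows, searched on both strands. The full E-box CACGTG, which overlaps the core by construction, was in none of the 7 and in 7.15% of all windows. The Gli binding motif GACCACCCA was likewise in none of the 7, Ptch1 and Hhip included, and in 0.253% of all windows. These letters describe the windows only. GC content was 62.3% for Gas1, 67.3% for Gli2 and 71.0% for Gli3, against a median of 52.7% over all windows. It was not particular to these genes, at 76.3% for Ptch1, 73.7% for Hhip, 67.7% for Smo and 56.3% for Sufu.

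Other genes of the pathway were taken from lists chosen with earlier results of these data known. Among 13 genes for other ligands and their release 8 were measured, none passed 1.5-fold either way, and the median log2 ratio was 0.14. Array-wide, 9.7% of measured genes were 1.5-fold lower and 6.33% higher. Scube2, which helps release the ligand from the cells that make it, read 450 and 632 (0.49), and Disp2, a relative of the release protein Disp1, also stood at 0.49. Ihh, a related ligand, read 77.2 and 98.1 (0.35). Gpc3, a glypican that competes with Ptch1 for ligand, had the lowest ratio at -0.55 (867 and 594), followed by Hhatl at -0.13 or lower. The direction of this median was the same in each setting tried, from 0.02 to 0.23.

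Regulators between Smo and the Gli proteins had 24 of 28 listed genes measured, of which 1 was 1.5-fold lower and none higher, under the 9.7% of all measured genes. Their median of -0.12 lay beside the -0.09 of all measured genes and was above 0 after quantile normalization (0.01), after loess (0.04), with each gene at the median of its measured probe sets (0.08) and over all 62 measured probe sets (0.06). Of those 62 probe sets 8 were 1.5-fold higher and 1 lower, while 14.4% of all measured probe sets were that much higher and 8.28% that much lower. With medians on both sides of 0, the list has no settled direction. The lower gene was Btrc, which marks Gli proteins for processing or destruction, at 154 and 88.1 (1.74-fold lower), although its 4 measured probe sets ran from -0.80 to 1.05. Fbxw11, its close relative, stood at -0.50 with probe sets from -0.50 to 0.69. At the upper end Csnk1d, a casein kinase gene, stood at 0.43 with probe sets from -0.25 to 0.43. Evc2, a Smo partner at the cilium base, stood at 0.37.

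Primary cilium genes, which vertebrate hedgehog signalling needs, had 24 of 30 measured and a median of -0.12. Of these 2 were 1.5-fold lower and none higher, a share near the 9.7% of all measured genes that were that much lower. Ift74, an intraflagellar transport subunit, read 267 and 152 (1.76-fold lower), and B9d1, part of the ciliary transition zone, read 129 and 78.8 (1.64-fold lower). B9d2 at 0.37 and Dync2h1, the retrograde motor chain, at 0.31 were the highest. Airway cells with motile cilia use intraflagellar transport genes as well, and their share of these signals was not tested.

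Genes regarded as hedgehog-responsive in mesenchyme or other fetal tissues made up the next list. Of 22 listed 20 were measured, 4 were 1.5-fold lower and none higher, beside 9.7% and 6.33% of all measured genes, and the median was -0.28. Acta2, smooth muscle actin, read 2825 and 1671 (1.69-fold lower), and Tagln, another smooth muscle protein gene, read 751 and 482 (1.56-fold lower). Osr1, a transcription factor gene of early mesenchyme, read 125 and 75.3 (1.66-fold lower), and Ccnd2, a cyclin gene, read 1365 and 836 (1.63-fold lower). The 7 measured probe sets of Ccnd2 ran from -0.77 to 0.04. At the upper end Mycn stood at 0.36 and the survival gene Bcl2 at 0.23, although the 4 measured probe sets of Bcl2 ran from -0.27 to 1.36. The transcription factor genes Foxf1 and Foxf2, mesenchymal targets of Shh in the lung, stood at -0.11 and 0.06, and Bmp4 at -0.15; these 3 were named after their values were seen. Quantile normalization left 2 of the list 1.5-fold lower and loess 1, with medians of -0.14 and -0.12, while 10.9% and 9.25% of all measured genes were that much lower.

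Part of that list overlaps smooth muscle and cell division. Of 9 smooth muscle markers 7 were measured and 3 were 1.5-fold lower (Myh11, Acta2 and Tagln), with Cnn1 and Lmod1 below the floor on both arrays. The median of the 7 was -0.45, with 5 below 0 and 2 above, Des (0.39) and Smtn (0.05). Their summed signals were 4820 and 3153, of which Acta2 alone gave 2825 and 1671. Of 19 cell division genes 17 were measured and 15 were 1.5-fold lower, with summed signals of 6542 and 3473. Over all measured genes 9.7% were that much lower and 6.33% that much higher. General mesenchymal markers, 15 of 16 measured with summed signals of 31093 and 28833, had 1 lower (Dcn) and 1 higher (Prrx1) and a median of -0.12, with Twist1 below the floor. The 4 measured probe sets of Prrx1 ran from -0.42 to 0.70. Pdgfra, the fibroblast receptor gene, read 1342 and 1012, with measured probe sets from -0.41 to 0.46. Tcf21, a lung mesenchyme factor gene, read 4181 and 4030, with measured probe sets from -0.05 to 0.37. By gene, 11 of the 15 mesenchymal markers lay below 0 and 4 above, the latter including Pdgfrb at 0.34 and Col1a1 at 0.14. Mesothelial markers had 4 of 7 measured genes lower (Aldh1a2, Krt19, Lrrn4 and Msln) and summed signals of 4090 and 2230. The part of these cell types in the ratios of Gas1, Gli2, Gli3 and the responsive genes was not tested.

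Fgf, Bmp and Wnt genes of lung branching had 14 of 15 measured, 1 lower and none higher, near the 9.7% and 6.33% of all measured genes. Their median was -0.11, and it was above 0 after loess (0.04). Wnt2, a mesenchymal Wnt gene, was the lower one at 585 and 310 (1.89-fold lower), followed by Spry2 at -0.35. Lef1 and Fgf9 were highest at 0.38 each, although the other measured Fgf9 probe set stood at -0.29. Fgf10, the mesenchymal growth factor gene that Shh restrains in the lung, read 99.7 and 91.6 (-0.12).

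**Figure D4:**
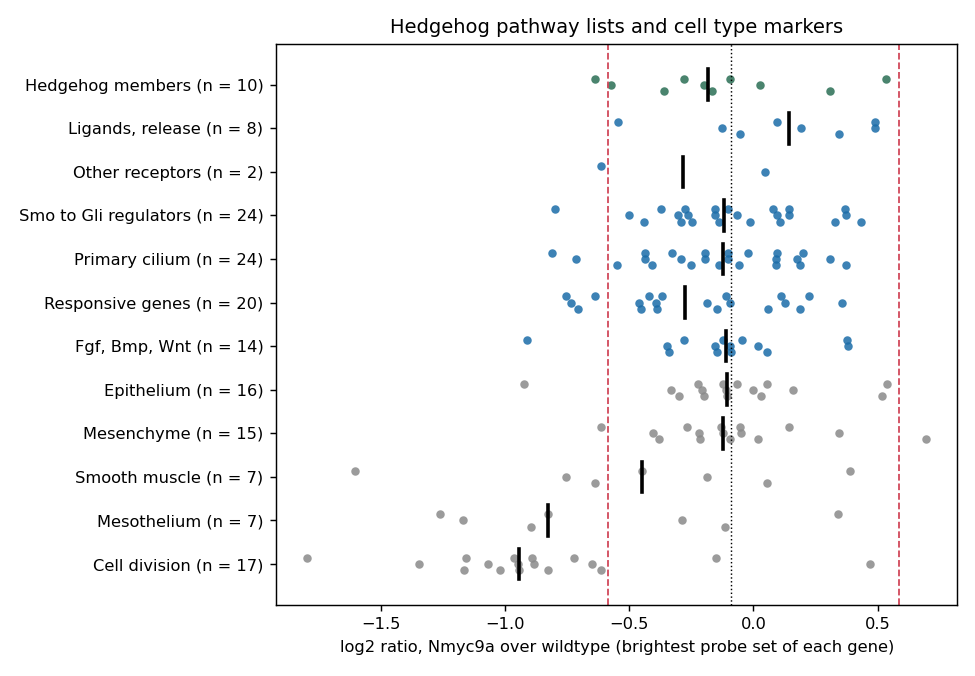
Log2 ratio (array labelled Nmyc9a over wildtype) of the brightest probe set of each measured gene, 1 row per list with its number of genes; black bars are list medians, the dotted line is the median of all measured genes (-0.09) and the dashed lines are 1.5-fold. The hedgehog members scatter from -0.64 to 0.53 around -0.18, whereas the cell division genes lie around -0.95.

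Across the arrays, the deposited signals had medians of 66.0 and 77.7. Mycn itself was not lower in the homozygote. Its measured probe sets read 66.3 and 84.8 (0.36), and 51.1 and 85.4 (0.74), and the remaining set, at 19.7 and 33.9, was below the floor. Both measured sets were in the dimmest bin of signal, and lay 0.18 and 0.56 above its median of 0.18. The wildtype signal of 51.1 was just above the floor of 49.3, so that set could hardly show a decrease. Since these probes cannot be placed against the mutated part of Mycn, they could not check the label, and every direction above rests on it. Markers of tissues that a dissection could carry along differed: 4 of 5 measured liver genes were 1.5-fold higher (Alb, Afp, Ttr and Apoa1; summed signals 336 and 1105), as were 2 of 5 skeletal muscle genes (Acta1 and Mylpf; 435 and 820). Of the endothelial (8), blood (6), cartilage (6) and nerve (4) genes measured none was higher and 1 was lower, the red cell gene Slc4a1. In the Myc family 1 of 10, Mxd4, was higher. Array-wide, 6.33% of measured genes were 1.5-fold higher and 9.7% lower. The part of liver and muscle RNA in the members' ratios was not tested.

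Directions of the 1 value per gene were compared over the reported setting and the alternatives to it. Other floor percentiles, no floor, other symbols and leaving out probe sets by suffix left most of these values unchanged. The settings are therefore not independent checks. Gas1, Gli2, Gli3, Ptch1 and Boc were below 0 in each setting that measured them, and Smo and Gli1 above 0. Single probe sets of Ptch1 (1.28) and Gli3 (0.30) nonetheless lay above 0. A ratio below 0 was also common array-wide, with 58.7% of measured genes there in the reported setting. After loess, Ptch1 (-0.08) and Boc (-0.10) stood beside the median of all measured genes (-0.06). Shh was above 0 in 11 of 12 settings, Sufu below 0 in 11 and Hhip below 0 in 10.

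**Figure D5:**
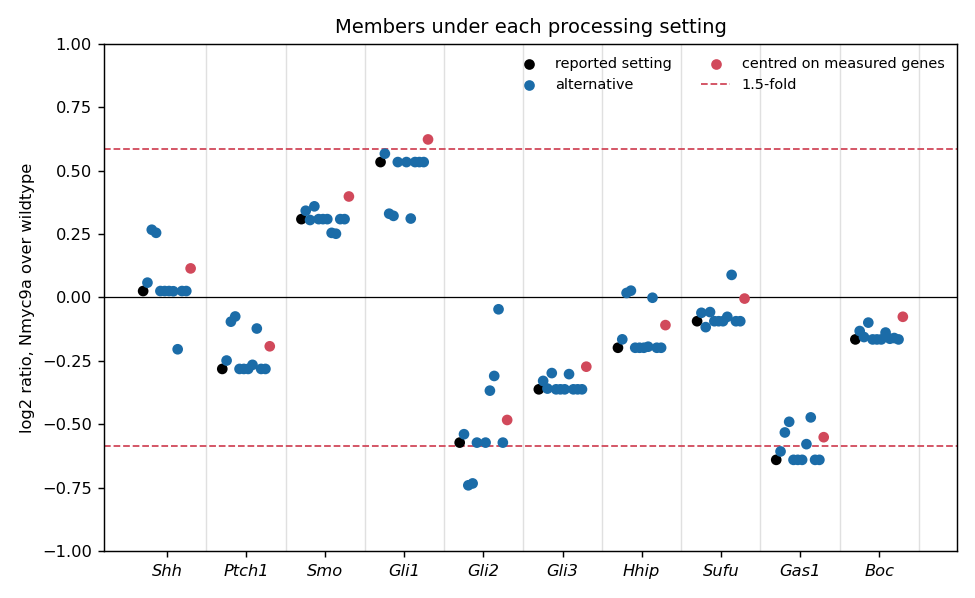
Log2 ratio (array labelled Nmyc9a over wildtype) of each member under the reported setting (black), 10 alternatives (blue) and centring on the measured genes (red), left to right in the same order for every gene; dashed lines are 1.5-fold. Gas1 runs from -0.64 to -0.47, Gli2 from -0.74 to -0.05 and Gli1 from 0.31 to 0.62, and Gli1 and Gli2 have no point with the floor at the 60th percentile.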

How the data were processed

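Total RNA of pooled whole lungs was extracted with Trizol and an RNeasy kit and labelled with biotin by the Affymetrix method, per the labels. The authors deposited 1 linear signal intensity per probe set and array; the sources used here state neither the software nor the scaling behind it. After 64 control probe sets were set aside, scaling, floor and size rule were applied as the report states (Python 3.11.15, pandas 2.3.3, statsmodels 0.14.6). These steps were also run on simulated data, with changes past 2-fold in bright probe sets only. That run does not test differences near 1.5-fold or dim probe sets. Symbols came from the platform annotation and were updated through Entrez identifiers to RefSeq (GRCm38.p6), matching 34741 of 34945 probe sets with 1 symbol; 932 with several symbols named no gene. All member probe sets are given; other lists name genes past 1.5-fold and the 2 highest and 2 lowest, with further genes chosen after their values were seen. Members and lists were chosen with earlier results of these data known. No test was possible with 1 array a group. Alternatives changed the scaling, floor, probe set choice, names and size rule; centring on measured genes was added after the data were seen.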

Additional observations from a re-analysis of the deposited data

How the results depend on the processing

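The members' median log2 ratio stayed below 0 under every alternative tried, from -0.18 to -0.07 (loess). That of all measured genes was below 0 as well, except with centring, which sets it to 0 by construction and left the members at -0.09. The members lay beside all measured genes after loess (-0.07 and -0.06) and after quantile normalization (-0.11 and -0.10). The number of members past 1.5-fold was 1 as reported, 0 with a pseudocount in place of the floor, 0 with each gene at the median over its probe sets, and 2 with every measured probe set counted. A rule of a 25% difference gave 4 members (1 higher, 3 lower), and a 2-fold rule gave 0. Centring on the measured genes, chosen after the data were seen, kept the count at 1, but the gene was Gli1, which was higher. The cause of these shifts was not tested. With 1 value a gene and the 1.5-fold rule, the counts of genes past it ran from 0 to 1 for ligands and release, 0 to 1 for other receptors, 0 to 2 for regulators between Smo and Gli, 1 to 3 for primary cilium and 1 to 4 for responsive genes, and stayed at 1 for Fgf, Bmp and Wnt genes. Counted by probe set, 9 of 62 passed for the regulators (8 higher, 1 lower) and 16 of 47 for responsive genes (5 higher, 11 lower). For Fgf, Bmp and Wnt genes 3 of 29 passed (1 higher, 2 lower). Of all measured probe sets 14.4% were 1.5-fold higher and 8.28% lower. Under the 25% rule 4 of 8 ligand and release genes passed (3 higher, 1 lower). So did 8 of 24 regulators (4 higher, 4 lower) and 8 of 24 cilium genes (1 higher, 7 lower). Responsive genes had 11 of 20 past it (1 higher, 10 lower), and Fgf, Bmp and Wnt genes 5 of 14 (2 higher, 3 lower). Array-wide, the same rule was met upwards by 16% of measured genes and downwards by 27.2%. Under the 2-fold rule 0 passed in each list. Of all measured genes past 1.5-fold 39.5% were higher as reported and 31.8% after quantile normalization. No paired analysis was possible because each group holds 1 array. Members near the floor, such as Gli1 at 57.3 on the wildtype array, could hardly show a decrease.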
